A study of Homo sapiens with 22 samples.

Results

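ATF4 and the genes of the amino acid response were followed in 22 RNA sequencing libraries of MDA-MB231, as the labels name the cells. This established line comes from a human breast cancer without oestrogen or progesterone receptors or excess HER2. The set holds 36 genes, found by their symbols among the 26485 symbols of each count table, and all 36 were present. They were chosen by name, with earlier results of these data known. By role they are 3 kinases of the translation initiation factor eIF2, 6 transcription factors and 8 feedback and stress effectors. The others are 11 enzymes of amino acid and one-carbon synthesis, 7 amino acid transporters and 1 tRNA exporter.

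The study concerns HDAC6, a mainly cytoplasmic deacetylase, and holds 3 experiments. In the first, cells of WT genotype were sampled at day 2 as Ctrl (n = 2, treatment label DMSO) or after 2 days in 7.65 µM Nexturastat A (n = 2), which the series describes as an HDAC6 inhibitor. In the second, sampled at day 0, cells carried a control hairpin (shCtrl, n = 3, genotype label WT) or 1 of 2 hairpins against HDAC6 (shHDAC6-1 and shHDAC6-2, n = 3 each, genotype label HDAC6 knockdown). In the third, WT cells were sampled at day 2 in DMSO, HPOB or Tubastatin A (n = 3 each). HPOB and Tubastatin A are known as HDAC6 inhibitors, and the labels give no dose for either. The titles of the Tubastatin A libraries read TSA, an abbreviation also used for trichostatin A, so the group rests on its treatment label. Nothing in the labels says that replicates came from separate cultures, so p-values measure the spread between these libraries, which may be technical. The labels name 1 line for all of these bulk samples, while the marker levels given below differ widely between libraries. In bulk samples, fewer cells of a kind and less RNA per cell cannot be told apart.

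Cells phosphorylate eIF2 when amino acids run short, when proteins misfold in the endoplasmic reticulum or when mitochondria or haem supply fail. General protein synthesis then slows, while the ATF4 mRNA is translated more, so much of the control of ATF4 is not visible in its mRNA. ATF4 protein pairs with C/EBP family partners on a composite site in its target genes, which encode amino acid importers, enzymes of serine, asparagine and cysteine synthesis, and proteins that damp or redirect the response. Breast cancer lines differ widely in serine synthesis genes and some depend on cystine import.

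The composite site, the C/EBP-ATF response element, has the core TGATGNAA, where N is any base, or TTNCATCA on the other strand. RefSeq promoter windows (GRCh38.p14, 250 bases before to 50 after a start) were matched for 29 of the 36 genes, with 45 windows in all. The core was found in 1 window of each of 7 genes, that is in 15.6% of the 45 windows, against 3.62% of all 35116 windows of the same 300 bases. The stretches below show the core in capitals, 5′ to 3′ on the strand of the gene, because they carry the letters that ATF4 and its partners are known to read. A match describes these letters and not a bound site.
CHAC1, chr15:40953246-40953285, plus strand: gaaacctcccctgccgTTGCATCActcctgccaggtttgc
ASNS, chr7:97872453-97872492, minus strand: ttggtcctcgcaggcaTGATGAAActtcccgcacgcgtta
CEBPG, chr19:33374055-33374094, plus strand: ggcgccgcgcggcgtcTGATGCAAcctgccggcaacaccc
SLC1A5, chr19:46784888-46784927, minus strand: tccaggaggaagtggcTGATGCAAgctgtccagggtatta
SLC1A4, chr2:64989381-64989410, plus strand: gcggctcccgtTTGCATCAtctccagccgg
SLC7A1, chr13:29595663-29595692, minus strand: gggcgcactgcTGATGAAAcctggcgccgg
SLC3A2, chr11:62881725-62881748, plus strand: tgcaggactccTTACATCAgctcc
Counted from the RefSeq start of its window, the core began 209 bases before the start in CHAC1, 97 in SLC1A5, 68 in ASNS and 42 in CEBPG. In SLC1A4 it ran across the start, and in SLC7A1 and SLC3A2 it lay just inside the transcript. These starts are not the outermost ones of every gene. By the gene spans of GENCODE 29, each of the 7 cores lay inside its gene.

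The libraries stood apart in ways that bear on what follows. Total counts ranged from 58.0 to 61.6 M (mega-counts) in the first experiment, from 50.9 to 85.9 M in the second and from 31.2 to 41.3 M in the third. Across all 22 libraries on 1 scaling, ESR1 and PGR, the oestrogen and progesterone receptors, stood at no more than 0.665 CPM (read counts scaled to a common library size). The genes listed as high in MDA-MB-231 were VIM, CD44, AXL, CAV1 and SPARC. VIM stood at 608 to 733 CPM in the 6 hairpin libraries of replicates 1 and 2 and at 1370 to 2190 CPM elsewhere. AXL stood at 17.1 to 34.4 CPM in those 6 against 277 CPM or more elsewhere, and CAV1 at 20.2 to 28.2 CPM against 136 CPM or more. SPARC ran the other way, at 143 to 239 CPM against 3.58 to 61.5 CPM. ERBB2, which encodes HER2, stood at 36.7 to 108 CPM in 20 libraries and at 156 and 155 CPM in the hairpin libraries of replicate 3. CDKN2A, which MDA-MB-231 is known to lack, stood at 135 to 176 CPM and IRS4 at 308 to 653 CPM in the 6 hairpin libraries of replicates 1 and 2, control hairpin included, while CD44 stood at 19.2 to 22.3 CPM there and at 309 CPM or more elsewhere. In the 13 libraries of the other experiments CDKN2A was at most 0.0335 CPM and IRS4 was at 0. In replicate 3, shCtrl held neither gene, whereas shHDAC6-1 held 9.86 CPM of CDKN2A and 10.1 CPM of IRS4 and shHDAC6-2 held 32.5 and 30.0 CPM. The replicate 3 hairpin libraries correlated with their shCtrl library at only 0.787 to 0.793 (log2 of CPM + 1). Replicates 1 and 2 were therefore tested on their own and replicate 3 is described apart. The Ctrl and DMSO groups also stood apart in some markers. NKX2-1, of the lung lineage, ranged from 51.0 to 63.0 CPM in Ctrl, while DMSO held only 0.782 to 1.54 CPM. FOXA1, of the luminal lineage, ranged from 8.92 to 9.03 CPM in Ctrl and reached at most 0.258 CPM with DMSO. CD74 was at most 0.0632 CPM in Ctrl, while DMSO held 148 to 164 CPM. The KRT18 ranges of Ctrl (359 to 405 CPM) and DMSO (354 to 379 CPM) overlapped. The part of any of these differences in the results was not tested.

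Some of the amino acid response genes were themselves at very different levels in the experiments. CBS, which condenses serine with homocysteine on the way to cysteine, stood at 30.7 to 55.5 CPM in the 6 hairpin libraries of replicates 1 and 2. It stood at 0 to 0.0613 CPM in the 13 libraries of the other experiments, at 0 in shCtrl replicate 3, at 2.37 CPM with shHDAC6-1 replicate 3 and at 9.24 CPM with shHDAC6-2 replicate 3, the order of CDKN2A and IRS4 in those libraries. PHGDH, the first enzyme of serine synthesis, stood at 495 to 589 CPM in the same 6 libraries, at 48.4 to 53.4 CPM in Ctrl and at 3.08 to 5.70 CPM in DMSO. STC2, a secreted glycoprotein induced by ATF4, ranged from 84.7 to 154 CPM in the 6 and from 1.02 to 7.42 CPM in the 13. SESN2, a leucine sensor that restrains mTORC1, stood at 113 to 183 CPM against 10.9 to 30.5 CPM. GDF15, a secreted stress cytokine, ran the other way, with 1.5 to 2.56 CPM against 12.1 to 83.0 CPM. These ranges do not overlap for any of the 5 genes. CBS has a near-identical copy in the genome, so its reads may have been split or discarded in counting.

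The knockdown was read first in its target. HDAC6 stood at 45.6 and 52.9 CPM in shCtrl replicates 1 and 2, at 12.8 and 12 CPM with shHDAC6-1 and at 12.4 and 14.0 CPM with shHDAC6-2. In replicate 3 it stood at 22.1 CPM in shCtrl, 9.73 CPM with shHDAC6-1 and 12.4 CPM with shHDAC6-2. The hairpin libraries were below their controls in all 3 replicates. With Nexturastat A, HDAC6 mRNA was not called (log2 fold change -0.19, 95% interval -0.51 to 0.14).

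The first question was how the genes moved when HDAC6 was knocked down. In replicates 1 and 2, 6 of the 8 feedback and stress effectors rose with each hairpin, led by CHAC1, a glutathione-degrading enzyme, at about 5.15-fold, and so did the cystine importer SLC7A11 at 2.15-fold and 2.20-fold. ATF4 mRNA rose by less, 1.31-fold and 1.24-fold. Enzymes of synthesis mostly did not pass the test. Genes were called at a Benjamini-Hochberg adjusted p under 0.05 over all genes tested (edgeR's quasi-likelihood test). With shHDAC6-1, 15 of the 36 genes were called higher and 4 lower, where 15.3% and 15.2% of all 17702 genes tested were. With shHDAC6-2, 15 were called higher and 2 lower, where 14.4% and 13.2% of all genes were. The median log2 fold change of the 36 genes was 0.25 and 0.18, against -0.02 and 0.00 over all genes. The hairpin comparisons share their shCtrl libraries, so their values are set side by side and are not counted as repeats of each other.

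**Figure D1:**
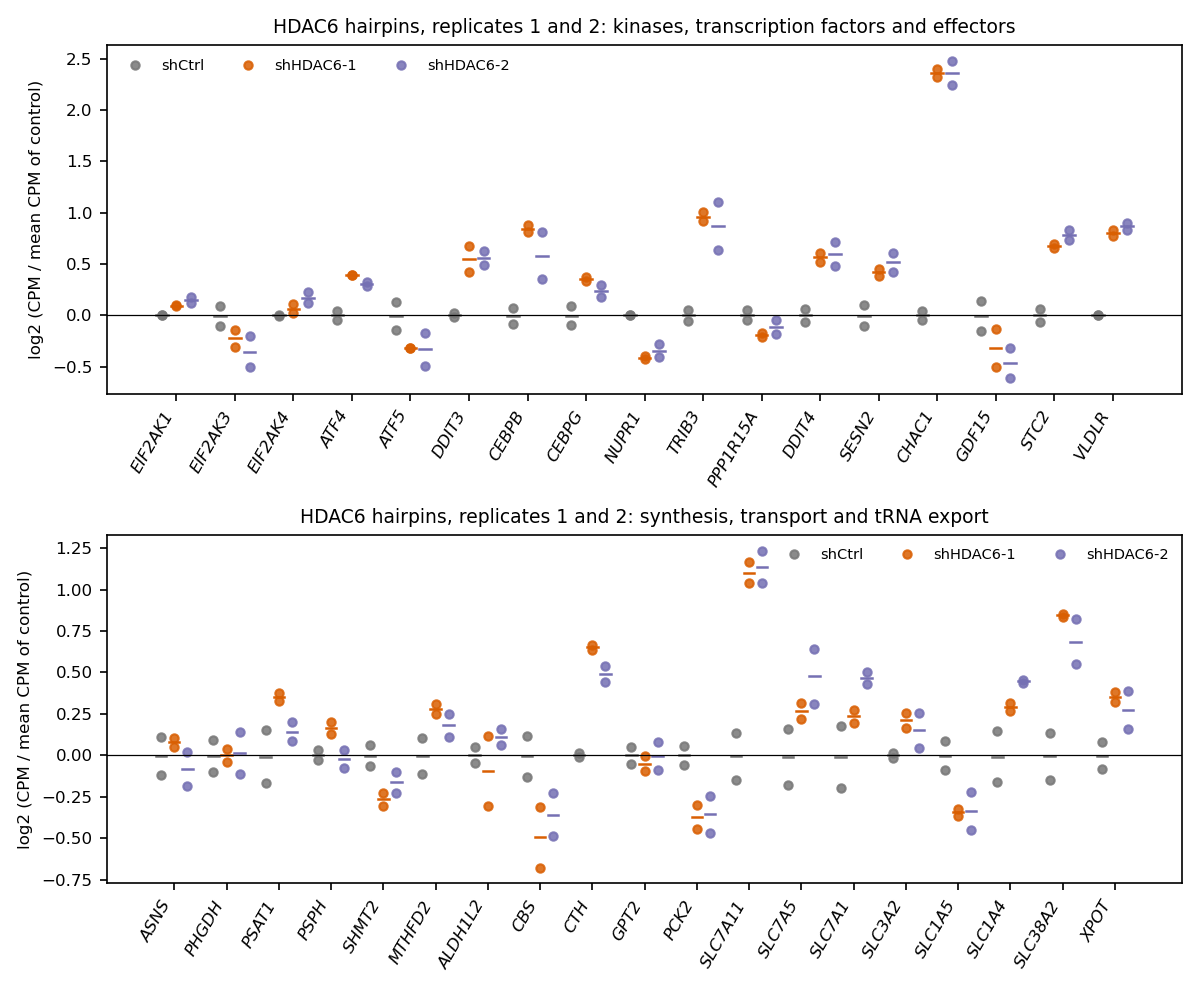
Level of each of the 36 genes in the hairpin experiment, replicates 1 and 2, as log2 of CPM over the mean CPM of the 2 shCtrl libraries (grey). Points are libraries, short bars are means of the log2 values, and genes are ordered by role. CHAC1 stands highest above its control with shHDAC6-1 (orange) and shHDAC6-2 (purple), followed by SLC7A11 and TRIB3, while PCK2, SLC1A5 and CBS lie below 0.

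None of the 3 eIF2 kinases was called with either hairpin. EIF2AK1 senses haem and mitochondrial stress, EIF2AK3 (PERK) misfolded proteins in the endoplasmic reticulum, and EIF2AK4 (GCN2) uncharged tRNA. EIF2AK3 stood at 16.5 and 14.4 CPM in shCtrl, 14.0 and 12.5 with shHDAC6-1 and 13.4 and 10.9 with shHDAC6-2. Its log2 fold changes were -0.22 (95% interval -0.54 to 0.10) and -0.35 (95% interval -0.67 to -0.03, adjusted p = 0.102).

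Among the transcription factors, ATF4 stood at 688 and 650 CPM in shCtrl, at 876 and 879 CPM with shHDAC6-1 and at 818 and 840 CPM with shHDAC6-2. All 4 hairpin libraries were above the shCtrl libraries, with log2 fold changes of 0.39 (SE 0.10, adjusted p = 0.00518) and 0.31 (SE 0.10, adjusted p = 0.0255). DDIT3 (CHOP), which ATF4 induces and which can favour cell death, stood at 15.9 and 15.5 CPM in shCtrl, 21.1 and 25.1 with shHDAC6-1, and 24.2 and 22.1 with shHDAC6-2. It rose by 0.56 on the log2 scale with each (SE 0.14, adjusted p = 0.00439 and 0.0045). CEBPB, a partner of ATF4 on composite sites, stood at 17.5 and 15.7 CPM in shCtrl, 29.2 and 30.5 with shHDAC6-1 and 21.2 and 29.1 with shHDAC6-2. Its log2 fold changes were 0.85 (SE 0.15) and 0.60 (SE 0.15), and replicate 1 of shHDAC6-2 stood nearest to the controls. CEBPG, the other partner, was called with shHDAC6-1 (log2 fold change 0.35, adjusted p = 0.0255) and not with shHDAC6-2 (0.24, adjusted p = 0.132). NUPR1, a small stress-induced cofactor, went the other way, with 20.6 CPM in each shCtrl library, 15.6 and 15.3 with shHDAC6-1 (log2 fold change -0.41, adjusted p = 0.0273) and 15.5 and 17 with shHDAC6-2 (-0.34, adjusted p = 0.0701). ATF5, a relative of ATF4, had log2 fold changes of -0.32 with each hairpin and was not called.

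6 of the 8 effectors (75.0%) were called higher with each hairpin, and PPP1R15A and GDF15 were called with neither. Over all genes 15.3% were called higher with shHDAC6-1 and 14.4% with shHDAC6-2. CHAC1 stood at 7.43 and 7.88 CPM in shCtrl, at 38.3 and 40.5 CPM with shHDAC6-1 and at 36.3 and 42.6 CPM with shHDAC6-2. No library came near the other group, and the log2 fold changes were 2.36 (SE 0.14, adjusted p = 7.31e-11) and 2.37 (SE 0.14, adjusted p = 7e-11). CHAC1 (chr15:40952962-40956519, GENCODE 29 on GRCh38) breaks glutathione into cysteinylglycine and oxoproline. The composite core printed above lies before the RefSeq start of its window and inside this GENCODE span. ASNS and SLC3A2, which also hold a core, were called with neither hairpin, and SLC1A5, which holds one, was called lower with each. TRIB3, VLDLR and STC2 were called higher with each hairpin and had no core in their windows. A relation between core and change was not tested.

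TRIB3, a pseudokinase that binds ATF4 and DDIT3 and damps them, stood at 25.2 and 27.1 CPM in shCtrl, 49.4 and 52.5 with shHDAC6-1 and 40.7 and 56.4 with shHDAC6-2. It rose by 0.96 (SE 0.14) and 0.89 (SE 0.14) on the log2 scale, with the hairpin libraries apart from the controls. VLDLR, a lipoprotein receptor induced by ATF4, stood at 21.8 CPM in each shCtrl library, at 37.3 and 38.7 CPM with shHDAC6-1 and at 38.8 and 40.8 CPM with shHDAC6-2. It rose by 0.80 (SE 0.13) and 0.87 (SE 0.13). STC2 stood at 88.4 and 96.1 CPM in shCtrl, 149 and 145 with shHDAC6-1 and 153 and 164 with shHDAC6-2, a rise of 0.67 and 0.78. Both regulators of mTORC1 rose: DDIT4 (REDD1), at 150 and 163 CPM in shCtrl, had log2 fold changes of 0.57 and 0.61, and SESN2, at 118 and 136 CPM, had 0.42 and 0.52. PPP1R15A (GADD34), which directs the phosphatase that restores eIF2, stood at 82.4 and 88.1 CPM in shCtrl and at 73.7 to 82.5 CPM in the 4 hairpin libraries. GDF15 stood at 1.59 to 2.67 CPM in all 6 libraries.

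Among the 11 enzymes of synthesis, 2 (18.2%) were called higher and 2 lower with shHDAC6-1, where 15.3% and 15.2% of all genes were. With shHDAC6-2 it was 1 (9.09%) and 1, where 14.4% and 13.2% of all genes were. These counts do not stand out from all genes and are not a result about the enzymes. ASNS, asparagine synthetase and a standard readout of ATF4, stood at 194 and 165 CPM in shCtrl, 186 and 193 with shHDAC6-1 and 182 and 158 with shHDAC6-2. The groups overlapped, and its log2 fold changes were 0.08 (95% interval -0.17 to 0.33) and -0.08 (95% interval -0.33 to 0.17). PHGDH was as flat, at 528 and 604 CPM in shCtrl and 524 to 623 CPM in the hairpin libraries, with log2 fold changes of 0.00 (95% interval -0.23 to 0.24) and 0.02 (95% interval -0.22 to 0.25). PSAT1, the next enzyme of serine synthesis, was called with shHDAC6-1 alone (log2 fold change 0.35, adjusted p = 0.0318, against 0.14 with shHDAC6-2). The mitochondrial one-carbon enzymes SHMT2, MTHFD2 and ALDH1L2 and the serine phosphatase PSPH were not called, and neither was GPT2, an alanine transaminase.

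The enzymes that make cysteine moved in opposite directions with shHDAC6-1. CTH, which releases cysteine from cystathionine, stood at 25.7 and 25.3 CPM in shCtrl, 40.5 and 39.6 with shHDAC6-1 and 37.0 and 34.7 with shHDAC6-2, and rose by 0.65 (SE 0.13) and 0.49 (SE 0.13). CBS, the step before it, stood at 47.8 and 56.8 CPM in shCtrl, 32.7 and 42.1 with shHDAC6-1 and 37.3 and 44.6 with shHDAC6-2. It fell with shHDAC6-1 (log2 fold change -0.48, adjusted p = 0.0128) and was not called with shHDAC6-2 (-0.35, adjusted p = 0.0686). PCK2, the mitochondrial enzyme that makes phosphoenolpyruvate, stood at 64.3 and 69.5 CPM in shCtrl, 49.2 and 54.4 with shHDAC6-1 and 48.4 and 56.4 with shHDAC6-2. Its hairpin libraries lay below the controls. It fell by 0.37 on the log2 scale with shHDAC6-1 (adjusted p = 0.0269) and by 0.35 with shHDAC6-2 (adjusted p = 0.0369), and these calls were lost once trends on GC content and length were removed.

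Among the transporters, SLC7A11, the cystine-glutamate exchanger (xCT) that supplies cysteine for glutathione, stood at 60.2 and 49.6 CPM in shCtrl, 123 and 113 with shHDAC6-1 and 129 and 113 with shHDAC6-2. It rose by 1.10 (SE 0.13, adjusted p = 7.43e-07) and 1.14 (SE 0.13, adjusted p = 4.96e-07), and no hairpin library overlapped the controls. SLC38A2 (SNAT2), a sodium-coupled importer of small neutral amino acids, stood at 263 and 216 CPM in shCtrl, 433 and 427 with shHDAC6-1 and 423 and 351 with shHDAC6-2. It rose by 0.84 (SE 0.12) and 0.69 (SE 0.12). SLC3A2, the heavy chain that carries SLC7A11 and SLC7A5 to the membrane, stood at 426 and 436 CPM in shCtrl and at 445 to 515 CPM in the hairpin libraries and was not called. SLC1A5 (ASCT2), the main glutamine importer, fell from 472 and 532 CPM to 401 and 390 with shHDAC6-1 and to 367 and 430 with shHDAC6-2 (log2 fold changes -0.34 and -0.33, adjusted p = 0.0249 and 0.0321), calls that were also lost with the GC and length trends removed. SLC7A5 (LAT1), SLC7A1 (the arginine and lysine carrier CAT1) and SLC1A4 were called with shHDAC6-2 (log2 fold changes 0.49, 0.47 and 0.45) and not with shHDAC6-1 (0.27, 0.24 and 0.29). XPOT, which exports tRNA from the nucleus, was called with shHDAC6-1 (0.35, adjusted p = 0.0282) and not with shHDAC6-2 (0.28, adjusted p = 0.0884).

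Those differences between the hairpins did not pass a test of their own. In shHDAC6-2 against shHDAC6-1, 0 of the 36 genes were called and 0 had an unadjusted p under 0.05, and 0.0% of all 17702 genes were called, with 1107 at an unadjusted p under 0.05. SLC7A1 came nearest, with a difference of 0.23 (95% interval -0.02 to 0.49). Log2 fold changes over the whole table ran lower at higher GC content in these comparisons, with rank correlations of -0.379 and -0.269 across 16476 genes. CHAC1 (62.6% GC) and TRIB3 (60.9%) rose against that trend, and SLC7A11 (35.4%) and SLC38A2 (38.1%) rose along it. With the GC and length trends removed, 17 of 19 and 15 of 17 calls held. Leaving out shHDAC6-1 replicate 2 took the genes called higher with that hairpin from 15 to 9. The 9 genes called under every alternative fit of replicates 1 and 2 with shHDAC6-1 were CEBPB, TRIB3, DDIT4, CHAC1, STC2, VLDLR, CTH, SLC7A11 and SLC38A2. The 10 with shHDAC6-2 were DDIT3, TRIB3, DDIT4, SESN2, CHAC1, STC2, VLDLR, CTH, SLC7A11 and SLC38A2. None of the 4 genes called lower with shHDAC6-1 kept its call when shCtrl replicate 2 or shHDAC6-1 replicate 1 was left out, and CBS alone kept it without shHDAC6-1 replicate 2. PCK2 and SLC1A5, the genes called lower with shHDAC6-2, both lost their calls without shCtrl replicate 2 and without shHDAC6-2 replicate 1.

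Replicate 3 gave larger and partly opposite differences, described without a test because it holds 1 library per group. In log2 ratios to shCtrl replicate 3, 15 of the 36 genes were at least 2-fold higher and 7 at least 2-fold lower with shHDAC6-1, where 30.9% and 33.1% of all 16676 genes were. With shHDAC6-2, 22 were higher and 5 lower, where 29.9% and 32.2% of all 16536 genes were. The median of the 36 was 0.68 and 1.77, against 0.06 and 0.08 over all genes. Over all genes these ratios followed GC content, with rank correlations of 0.749 and 0.728, opposite in sign to replicates 1 and 2. Across genes such a correlation is a description, since they share the libraries and their base composition. A fit of all 9 hairpin libraries called 0 of the 36 genes with either hairpin.

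CHAC1 was high again, at 5.71 CPM in shCtrl replicate 3, 48.5 CPM with shHDAC6-1 and 42.5 CPM with shHDAC6-2, log2 ratios of 3.09 and 2.89. ATF4 stood at 268, 687 and 762 CPM in that order (log2 ratios 1.36 and 1.51) and CEBPB at 36.3, 174 and 191 CPM (2.26 and 2.40). TRIB3 stood at 24.9, 69.0 and 289 CPM and SESN2 at 11.7, 65.3 and 51.1 CPM. These 5 genes, with GC contents from 56.7% (ATF4) to 66.2% (CEBPB), lay above the shCtrl library with each hairpin. SLC7A11 reversed, at 113 CPM in shCtrl, 5.33 with shHDAC6-1 and 16.1 with shHDAC6-2 (log2 ratios -4.41 and -2.81), and SLC38A2 at 628, 103 and 181 CPM did so too (-2.61 and -1.79). PCK2, at 28.7, 103 and 210 CPM, and SLC1A5, at 283, 589 and 1270 CPM, reversed upward. Of the 36 genes, 9 of the 19 called in replicates 1 and 2 had the same sign in replicate 3 with shHDAC6-1, and 13 of 17 with shHDAC6-2. The same share over all genes called is not given here, so these counts are not a result about this set.

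ASNS, PHGDH, PPP1R15A and GDF15, which were not called in replicates 1 and 2, stood above the control in replicate 3, ASNS by less than 2-fold with shHDAC6-1. ASNS stood at 69.0 CPM in shCtrl, 97.1 with shHDAC6-1 and 316 with shHDAC6-2, PHGDH at 26.8, 98.9 and 252, and PPP1R15A at 73.6, 403 and 464. GDF15 stood at 2.52, 15.1 and 66.4 CPM. CBS had 0 counts in shCtrl, so its ratio is a bound against a floor of 3 counts in that library, at least 44.0-fold higher with shHDAC6-1 and at least 178-fold higher with shHDAC6-2. On the same scaling CDKN2A stood at 0, 7.52 and 25.8 CPM and IRS4 at 0, 7.73 and 23.8 CPM, also highest with shHDAC6-2. Whether that signal or the GC trend bears on these ratios was not tested.

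**Figure D2:**
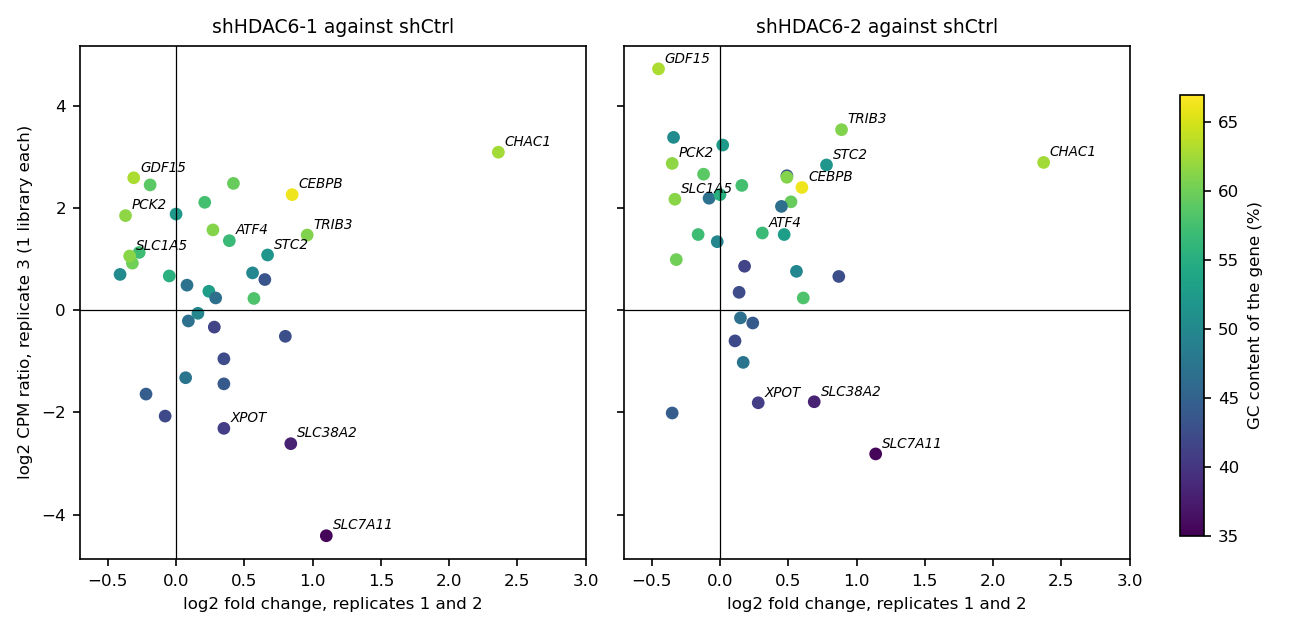
Log2 fold change of each gene in replicates 1 and 2 (horizontal axis) against its log2 CPM ratio in replicate 3 (vertical axis, 1 library per group) for shHDAC6-1 (left) and shHDAC6-2 (right). Points are 35 genes without CBS, which has no counts in shCtrl replicate 3, and colour gives GC content in percent. CHAC1 lies high on both axes, while the low-GC SLC7A11 and SLC38A2 lie below 0 in replicate 3 and the high-GC PCK2 and SLC1A5 lie above it.

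The next question was what the inhibitor Nexturastat A did at 7.65 µM. GDF15 rose 6.18-fold and STC2 5.01-fold, DDIT3 rose 1.83-fold and CEBPB 1.62-fold, and NUPR1, ATF5, the kinases EIF2AK3 and EIF2AK4 and several genes of serine and one-carbon synthesis and transport fell. ATF4 mRNA did not pass the test. Of 35 genes tested (CBS had 0 counts in all 4 libraries), 4 were called higher, where 21.1% of all 16678 genes were, and 10 lower, where 15.5% were. The median log2 fold change of the 35 was -0.07, against 0.03 over all genes. These calls rest on few libraries: only 4 of the 14 held without Ctrl replicate 1 and 3 without Ctrl replicate 2, and 7 held with GC and length trends removed. With a mean CPM of at least 5 required, 1 gene was called lower in place of 10, ATF5, and EIF2AK3, EIF2AK4 and every lower call in synthesis, transport and tRNA export was lost (NUPR1 was not tested there). Genes called higher numbered 9 without Nexturastat A replicate 1 and 7 without its replicate 2. GDF15, STC2 and NUPR1 were called in every alternative that tested them.

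**Figure D3:**
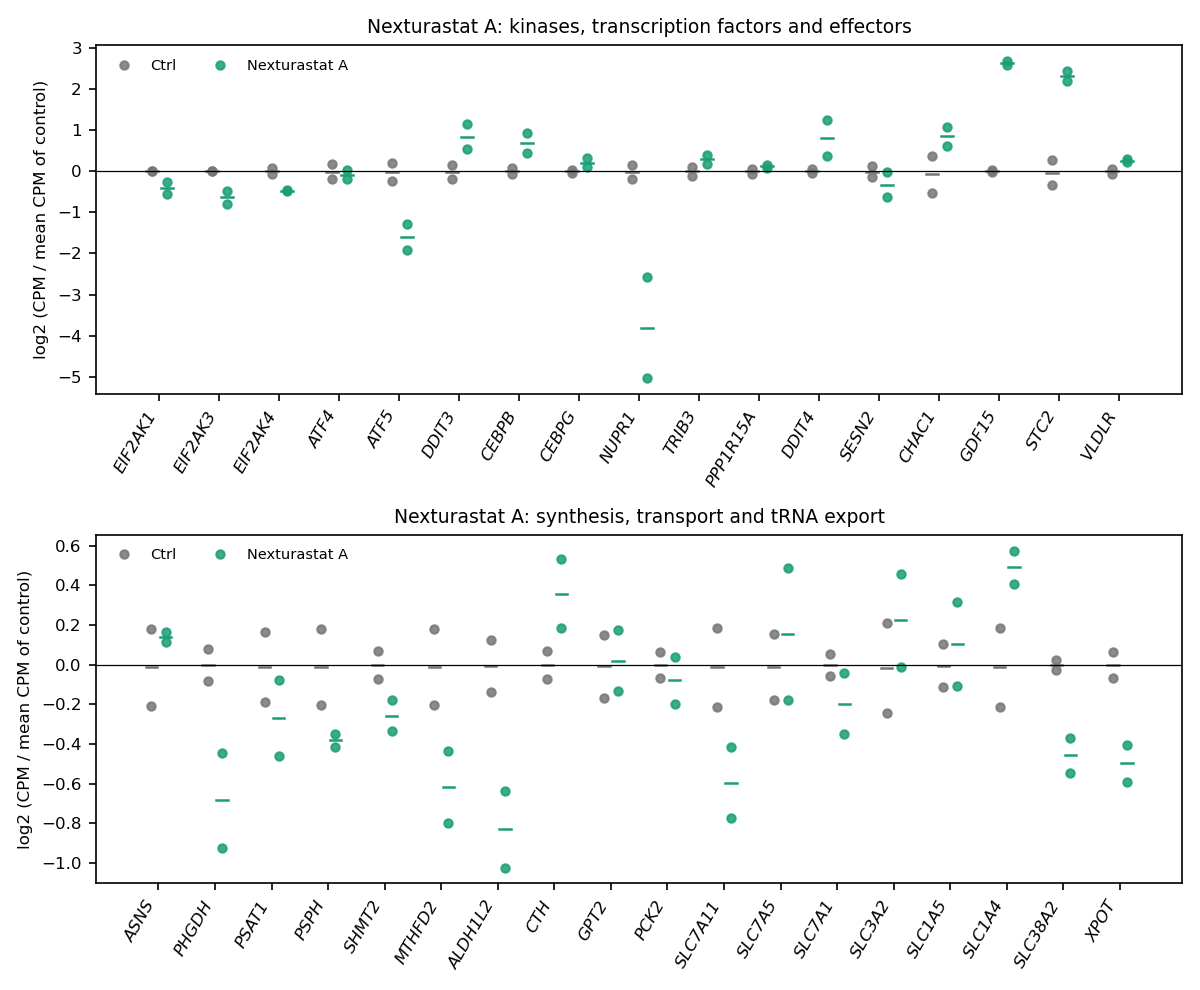
Level of 35 genes in the Nexturastat A experiment, as log2 of CPM over the mean CPM of the 2 Ctrl libraries (grey). Points are libraries, short bars are means of the log2 values, and CBS is left out because it had no counts. GDF15 and STC2 stand above 2 and NUPR1 and ATF5 below -1 in each Nexturastat A library (green), while ATF4 overlaps its controls.

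EIF2AK3 stood at 19.8 CPM in each Ctrl library and at 11.5 and 14.3 CPM with Nexturastat A (log2 fold change -0.62, SE 0.18, adjusted p = 0.0347). EIF2AK4 fell from 107 and 97.1 CPM to 74.4 and 72.7 CPM (-0.47, SE 0.12, adjusted p = 0.0229). EIF2AK1, at 167 and 166 CPM in Ctrl and 138 and 113 CPM with the compound, was not called (-0.41, adjusted p = 0.0539). Each kinase mRNA was lower in both treated libraries than in either control. With 2 libraries a side such a placement is common: of the 35 genes tested, 13 lay wholly below Ctrl and 12 wholly above. The share over all genes is not given here.

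ATF4 stood at 328 and 423 CPM in Ctrl and at 327 and 387 CPM with Nexturastat A, overlapping groups with a log2 fold change of -0.07 (95% interval -0.47 to 0.32). ATF5 fell from 11.2 and 15 CPM to 3.49 and 5.38 CPM (-1.56, SE 0.28, adjusted p = 0.00665). NUPR1 fell from 1.91 and 2.42 CPM to 0.0665 and 0.361 CPM, which are 4 and 22 counts, so its change of -3.33 (SE 0.65, adjusted p = 0.00894) rests on very few reads. DDIT3 rose from 15.7 and 19.9 CPM to 39.3 and 25.8 CPM (0.87, SE 0.24, adjusted p = 0.0263), with replicate 1 the higher. CEBPB likewise rose from 17.8 and 16.1 CPM to 32.2 and 22.9 CPM (0.70, SE 0.20, adjusted p = 0.033), again with replicate 1 the higher.

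GDF15 stood at 12.8 and 13.2 CPM in Ctrl and at 77.8 and 83.1 CPM with Nexturastat A, a log2 fold change of 2.63 (SE 0.14, adjusted p = 0.000248) with tight replicates. STC2 rose from 1.08 and 1.63 CPM to 7.36 and 6.24 CPM (2.33, SE 0.30, adjusted p = 0.00257). The 2 genes thus stood apart from their controls in every library. CHAC1, at 6.20 and 11.6 CPM in Ctrl and 13.7 and 18.8 CPM with the compound, was not called (0.87, 95% interval 0.12 to 1.63, adjusted p = 0.0693). DDIT4 stood at 128 and 137 CPM in Ctrl and at 314 and 172 CPM with Nexturastat A and also missed the threshold (0.87, adjusted p = 0.0542). TRIB3, PPP1R15A, SESN2 and VLDLR had log2 fold changes between -0.30 and 0.29 and were not called.

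In serine and one-carbon metabolism, PHGDH fell from 51.0 and 57.0 CPM to 28.5 and 39.7 CPM (-0.66, SE 0.18, adjusted p = 0.0289). MTHFD2, a mitochondrial folate enzyme, fell from 78.3 and 102 CPM to 51.8 and 66.6 CPM (-0.61, SE 0.18, adjusted p = 0.0378). ALDH1L2, which oxidises formyl-tetrahydrofolate in mitochondria, fell from 9.82 and 11.8 CPM to 5.32 and 6.96 CPM (-0.81, SE 0.23, adjusted p = 0.0292). In all 3 the treated libraries lay below the controls. ASNS stood at 135 and 177 CPM in Ctrl and 175 and 169 CPM with the compound (0.14, 95% interval -0.23 to 0.50).

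SLC7A11 and SLC38A2, which had risen with the hairpins in replicates 1 and 2 but stood below shCtrl in replicate 3, were called lower. SLC7A11 stood at 104 and 137 CPM in Ctrl and 70.4 and 90.4 CPM with Nexturastat A (-0.58, SE 0.18, adjusted p = 0.0439), and SLC38A2 at 729 and 755 CPM against 575 and 508 CPM (-0.46, SE 0.13, adjusted p = 0.0353). XPOT fell from 376 and 413 CPM to 262 and 298 CPM (-0.49, SE 0.13, adjusted p = 0.0265). All 3 calls were lost with the GC and length trends removed, with a mean CPM of at least 5 required, and without either Ctrl library. SLC7A5, SLC7A1, SLC3A2, SLC1A5 and SLC1A4 were not called. Of the 15 genes called higher with shHDAC6-1 in replicates 1 and 2, 3 were higher, 3 lower and 9 not called with Nexturastat A. Of the 15 called higher with shHDAC6-2 in those replicates, 3 were higher, 2 lower and 10 not called. With Nexturastat A 21.1% of all genes tested were called higher and 15.5% lower, and these counts are near those shares. The genes higher in each case were DDIT3, CEBPB and STC2, of which DDIT3 and CEBPB lost their Nexturastat A call with GC and length trends removed or without either Ctrl library. These experiments share no library, and the difference between a hairpin's effect and that of the compound was not tested.

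**Figure D4:**
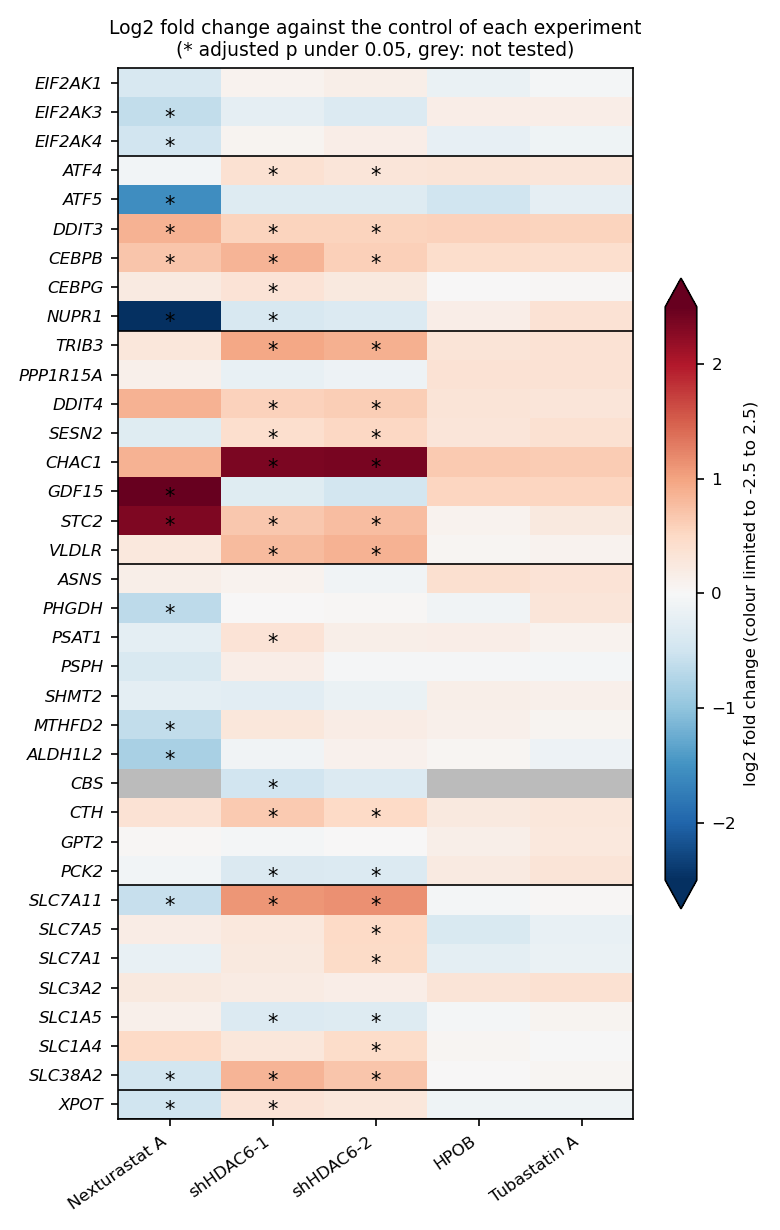
Log2 fold change of the 36 genes (rows, grouped by role from kinases at the top to tRNA export at the bottom) in 5 comparisons (columns), each against the control of its own experiment and with replicates 1 and 2 for the hairpins. Red is higher, blue lower, colour is capped at the ends of the bar, stars mark an adjusted p under 0.05 and grey was not tested. CHAC1 is darkest with the hairpins and GDF15, STC2 and NUPR1 with Nexturastat A, and no star stands in the HPOB and Tubastatin A columns.

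HPOB and Tubastatin A gave small shifts that did not pass the test. None of the 35 genes tested was called with HPOB, where 0.0261% of all 15338 genes (4 genes) were, or with Tubastatin A, where 0.0% were. At an unadjusted p under 0.05 there were 11 higher and 2 lower among the 35 with HPOB, where 10.4% of all genes passed, and 14 higher and 0 lower with Tubastatin A, where 4.94% did. DESeq2 called none of the 35 either, and 102 and 18 genes over the whole table. The 2 compounds share their DMSO libraries, so their values stand side by side without a comparison. No library of a compound overlapped DMSO for 14 genes above it and 3 below it with HPOB, where 11.2% and 10.4% of all genes were so placed. With Tubastatin A this held for 15 genes above and 2 below, where 9.15% and 7.55% of all genes were. Over all genes the log2 fold changes had rank correlations with GC content of 0.101 with HPOB and 0.318 with Tubastatin A, and CHAC1, CEBPB, GDF15, TRIB3 and PCK2, at 60.9% to 66.2% GC, were among the genes above DMSO. The part of that trend in these values was not tested.

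Transcription factors and effectors made up most of those above. CHAC1 stood at 12.9, 14.8 and 12.6 CPM in DMSO, 16.1, 20.1 and 26.9 with HPOB and 15.6, 25.1 and 21.6 with Tubastatin A. Its log2 fold changes were 0.65 (95% interval 0.22 to 1.08, adjusted p = 0.361) and 0.63 (95% interval 0.20 to 1.06, adjusted p = 0.857). DDIT3 stood at 26.1, 27.8 and 27.9 CPM in DMSO, 31.9, 38.1 and 52.0 with HPOB and 31.8, 54.8 and 33.3 with Tubastatin A (0.58 and 0.55). The highest values of ATF4, DDIT3 and DDIT4 were those of HPOB replicate 3 and Tubastatin A replicate 2 within their groups.

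GDF15 stood at 42.9, 43.7 and 49.5 CPM in DMSO, 55.6, 68.1 and 72.6 with HPOB and 51.2, 84.0 and 63.0 with Tubastatin A (0.53 and 0.54). CEBPB stood at 53.0, 52.2 and 57.1 CPM in DMSO, 67.8, 82.6 and 67.8 with HPOB and 64.5, 77.6 and 74.5 with Tubastatin A (0.43 and 0.42). All treated libraries of these 2 genes were above all DMSO libraries. ATF4 was placed the same way, at 236, 236 and 241 CPM in DMSO, 258, 307 and 331 with HPOB and 258, 361 and 259 with Tubastatin A (0.33, 95% interval 0.03 to 0.63, and 0.30, 95% interval 0.00 to 0.59). TRIB3 had 0.32 and 0.37 and PPP1R15A 0.36 and 0.37.

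In synthesis and transport the values were mixed. ASNS stood at 72.7, 78.8 and 73.0 CPM in DMSO, 90.8, 101 and 103 with HPOB and 82.8, 115 and 86.1 with Tubastatin A (0.40 and 0.34), again above every DMSO library. SLC3A2 had log2 fold changes of 0.32 and 0.39. SLC7A11, which moved in the other experiments, stood at 119, 104 and 109 CPM in DMSO, 111, 111 and 98.8 with HPOB and 125, 98.2 and 114 with Tubastatin A, overlapping groups with -0.05 (95% interval -0.28 to 0.18) and 0.02 (95% interval -0.21 to 0.25). SLC7A5 stood below DMSO with HPOB (-0.39, adjusted p = 0.458), and ATF5 was below DMSO in every treated library (-0.50, adjusted p = 0.274, and -0.22, adjusted p = 0.857).

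**Figure D5:**
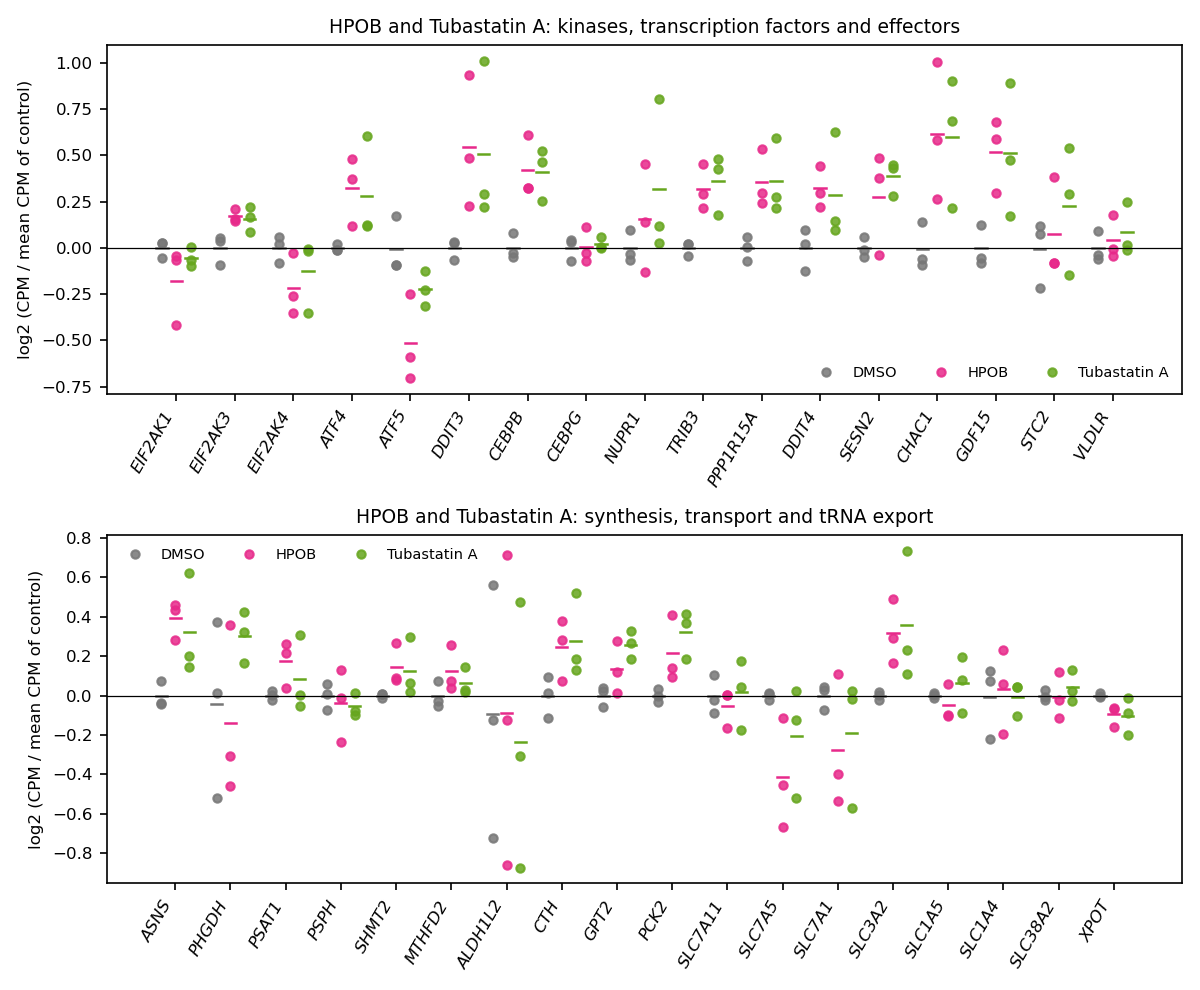
Level of 35 genes in the compound experiment, as log2 of CPM over the mean CPM of the 3 DMSO libraries (grey), without CBS. Points are libraries, short bars are means of the log2 values, with HPOB in pink and Tubastatin A in green. CHAC1, DDIT3, GDF15, CEBPB and ASNS lie above DMSO in every treated library, with the libraries of a group spread widely, and SLC7A11 overlaps DMSO.

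Genes next to these in the pathway were read from lists written down by role, with earlier results of these data known. Their counts are to be read against all genes tested: 15.3% were called higher and 15.2% lower with shHDAC6-1, 14.4% and 13.2% with shHDAC6-2, and 21.1% and 15.5% with Nexturastat A. Among 20 cytosolic aminoacyl-tRNA synthetases, which charge tRNA and include known ATF4 targets, 8 (40.0%) were called higher with shHDAC6-1 and 10 (50%) with shHDAC6-2. The alanine enzyme AARS was the 1 called lower with each (log2 fold changes -0.54 and -0.38). The tyrosine enzyme YARS rose by 0.59 and 0.66, GARS by 0.57 with shHDAC6-1 and VARS by 0.69 with shHDAC6-2. With Nexturastat A none of the 20 was called higher, and 3 (15%, near the share of all genes) were called lower, QARS (-0.76), IARS (-0.49) and GARS (-0.47).

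Of 18 chaperones and targets of IRE1 or ATF6, the other arms of the endoplasmic reticulum response, 10 (55.6%) were called higher with each hairpin. DNAJB9 (1.01) and SEC61B (0.85) led with shHDAC6-1, and PDIA4 (0.85) and HSPA5 (BiP, 0.76) with shHDAC6-2. The 3 lower with shHDAC6-1 (16.7%) and 2 with shHDAC6-2 (11.1%) were near the share of all genes. They included HYOU1 (-0.79 and -0.65), the IRE1 gene ERN1 with shHDAC6-1 (-0.61) and CALR with shHDAC6-2 (-0.40). With Nexturastat A the 3 higher (16.7%) and 2 lower (11.1%) did not exceed the shares of all genes, with SDF2L1 (1.24) and ERN1 (0.76) higher and XBP1 (-0.53) and HSP90B1 (-0.43) lower. Among 17 genes of eIF2, eIF2B and their regulators, 6 (35.3%) were called higher with shHDAC6-1 and 5 (29.4%) with shHDAC6-2, and 1 (5.88%) lower with each. EIF2A, an alternative initiator, led (0.92 and 0.72), followed by PPP1R15B with shHDAC6-1 (0.66) and DNAJC3 with shHDAC6-2 (0.67), and the mitochondrial protease OMA1 fell (-0.38 and -0.39). With Nexturastat A 0 were higher and 2 (11.8%) lower, EIF2AK2 (PKR, -0.86) and EIF2S2 (-0.62).

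With the hairpins, the other response genes were nearer to the shares of all genes. Of 32 further genes of the response, 6 (18.8%) were called higher and 6 lower for shHDAC6-1, and 5 (15.6%) and 4 (12.5%) for shHDAC6-2. The death receptor TNFRSF10B (1.10 and 1.17) and SQSTM1 (p62, 0.61 and 0.62) were highest, and BATF2 (-1.19 and -0.87) and SLC38A7 (-1.16 and -0.98) lowest. With Nexturastat A 5 of 30 (16.7%) were higher and 7 (23.3%) lower, from NDRG1 (2.06) and INHBE (1.98) to SLC38A1 (-0.88) and SHMT1 (-1.28).

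Among 17 genes by which mTORC1 senses amino acids, 5 (29.4%) were called higher and 4 (23.5%) lower with shHDAC6-1, and 4 (23.5%) and 3 (17.6%) with shHDAC6-2. SESN3 (1.55 and 1.53) and RRAGC (1.2 and 1.04) were highest, and the arginine sensor CASTOR1 (listed as GATSL3, -0.96 and -0.89) and NPRL3 (-0.66 and -0.50) lowest. With Nexturastat A 3 (17.6%) were higher, among them KICS2 (listed as C12orf66, 0.98) and CASTOR2 (listed as GATSL2, 0.77), and 1 (5.88%) lower, SESN1 (-0.67). Of 10 genes of glutathione and cystine use, 3 (30.0%) were higher and 3 lower with shHDAC6-1, 1 (10.0%) and 2 (20%) with shHDAC6-2, and 5 (50%) and 1 (10.0%) with Nexturastat A. TXNRD1, thioredoxin reductase, rose with each hairpin (1.52 and 1.46) and with Nexturastat A (1.08), and NFE2L2 with shHDAC6-1 (0.36). GSS, glutathione synthetase, fell in the same 3 comparisons as TXNRD1 rose (-0.97, -0.83 and -0.57). SLC7A8, a neutral amino acid exchanger, fell with the hairpins (-0.80 and -0.70) and rose with Nexturastat A (3.97). HPOB and Tubastatin A called no gene of any of these lists.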

How the data were processed

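RNA was measured by bulk RNA sequencing of total RNA in 22 libraries labelled MDA-MB231. The authors deposited raw read counts per gene symbol. The submitters' processing notes name Trim Galore 0.6.7, STAR 2.7.9a, featureCounts 2.0.3, DESeq2 1.30.1 and GRCh38, while the annotation, the strand setting and the handling of multi-mapping reads were not given in the sources used here. Counts were grouped by GEO's labels. Each experiment was fitted in edgeR 4.0.16 (R 4.3.3) with TMM scaling, genes kept by filterByExpr (minimum count 10, total 15), the robust quasi-likelihood F-test and Benjamini-Hochberg adjustment over all genes tested, calling at 0.05. The hairpin fit used replicates 1 and 2 of the 3 groups, and the compound fit all 9 libraries. CPM values carry each fit's TMM factors, and levels across experiments were put on 1 scaling of 22 libraries. Intervals are at 95%, and the counts have no molecular identifiers, so floors cover counting error only. The fit was tested on simulated data. GC content and length come from the longest transcript in GENCODE 29, matched for 23899 of 26485 symbols. Replicate 3 ratios keep genes with at least 10 counts in 1 of the 2 libraries compared, with 0 counts set to the floor of 3.

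All 36 genes, HDAC6 and, in each pathway list, the called genes with the 2 highest and 2 lowest log2 fold changes are named, and GARS with Nexturastat A was added after its value was seen. The 36 genes, the lists and the markers were chosen with earlier results of these data known. Of the 18 genes listed for mTORC1 sensing, 1 had no match in the files. Alternatives were DESeq2 1.42.0, its size factors, other filters, a replicate block, GC and length correction (splines of 3 degrees of freedom), leaving out libraries, and all 9 hairpin libraries. No replicate pair had identical counts, and in all 20 replicate pairs counts differed by more than sampling noise. Promoter windows are RefSeq's.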

Additional observations from a re-analysis of the deposited data

Results flagged for a closer look

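In 14 cases a gene of the set that was called in hairpin replicates 1 and 2 pointed the opposite way in replicate 3. There 1 library per group allows no test, so the difference was not tested. The share of such cases over all genes called is not given here, so the count is not a result about this set. With shHDAC6-1 these were CEBPG, with a log2 ratio of -1.44 in replicate 3, VLDLR at -0.51, PSAT1 at -0.95, SLC7A11 at -4.41, SLC38A2 at -2.61 and XPOT at -2.31, all of which had risen in replicates 1 and 2. NUPR1 at 0.70, CBS at 5.46 against the floor of 3 counts, PCK2 at 1.85 and SLC1A5 at 1.06 had fallen there. With shHDAC6-2 these were SLC7A11 at -2.81 and SLC38A2 at -1.79, which had risen, and PCK2 at 2.87 and SLC1A5 at 2.17, which had fallen. The replicate 3 libraries also showed the opposite relation to GC content and held CDKN2A and IRS4 with each hairpin and none in shCtrl, and the part of either in these reversals was not tested.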

How the results depend on the processing

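No gene of the set was called with HPOB, with Tubastatin A or between the hairpins under any alternative. With Nexturastat A 6112 genes were called over the whole table, and 3586 at a mean CPM of at least 5. Leaving out 1 library gave 1781 to 8922 in the whole table, 2 to 9 of the set higher and 1 to 13 lower. With GC and length trends removed 6 were lower, and 1 with the filter on mean CPM. With shHDAC6-1 5401 genes were called. Leaving out 1 library gave 3160 to 5963 in the whole table, 9 to 16 of the set higher and 0 to 5 lower. With shHDAC6-2 4880 genes were called, and 7367 with GC and length trends removed. Those of the set called lower were 4 at a mean CPM of at least 5 and 0 to 3 without 1 library. All 9 hairpin libraries together called 0 genes in the whole table with either hairpin, and 0 of the set higher or lower. In that fit the sign reversed with shHDAC6-1 for PSAT1 (-0.02), PCK2 (0.45), SLC7A11 (-0.08), SLC1A5 (0.16), SLC38A2 (-0.38) and XPOT (-0.47), and with shHDAC6-2 for PCK2 (1.06), SLC1A5 (0.76) and SLC38A2 (-0.38). Between the hairpins 12 genes were called without a low-count filter and 1 to 25 without 1 library. HPOB called 102 genes in DESeq2, 14 without a low-count filter, 2 with the filter on mean CPM, 15 with GC and length trends removed, 20 with HPOB replicate 3 and Tubastatin A replicate 2 left out, and 0 to 4 without 1 library. Tubastatin A called 18 in DESeq2 and 3 with GC and length trends removed. The cause was not tested for any of these shifts.

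The labels share replicate numbers but do not say that these mark a batch or day, and deviations of same-numbered libraries correlated at 0.105 with Nexturastat A, between -0.046 and 0.161 in the hairpins and between -0.155 and 0.198 in the compounds, so the numbers were not taken to pair the samples. With the replicate block, 4 genes of the set were lower with shHDAC6-2 and HPOB called 7 genes in the whole table. Where leaving out a library left 1 in a group, that library is assumed to vary like the others. Genes with few counts, NUPR1 with Nexturastat A and CBS outside replicates 1 and 2 of the hairpins, are limited by depth.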
